A study of Homo sapiens with 120 samples.

Results

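Parental U2OS cells given arsenite for 8 h were compared with untreated wells of the same cells at 8 h, across every gene that the libraries could test. U2OS is a human osteosarcoma line, and the labels give the Parental cells the genotype WT. The comparison holds 6 of the series' 120 libraries, chosen by their labels: 3 from wells given 0.05 mM arsenite and 3 from wells left untreated. Of the 57665 genes in the tables, 26998 passed the expression filter and were tested. Further groups were used to place the result. They were Parental cells given arsenite or left untreated for 4 h, Dmr-PERK cells given arsenite or left untreated for 8 h, and Parental cells given 100 nM thapsigargin for 8 h, each in triplicate. A time course of 8 genes also used Parental cells given 0.05 mM arsenite for 2 to 24 h and untreated wells at 0 to 24 h. Dmr-PERK cells are U2OS cells with the kinase domain of mouse PERK joined to DmrB, a domain derived from FKBP. Thapsigargin blocks the calcium pump of the endoplasmic reticulum (ER). All the cells come from 1 line grown in 24-well plates, and the labels do not say that the wells of a group were separate cultures, so p-values measure the spread between wells, which may be technical.

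Arsenite is a trivalent arsenical that binds thiol groups of proteins. It is known to act on several stress pathways at once. Unfolded cytosolic proteins release the factor HSF1, which drives genes of heat shock proteins. The factor NRF2, freed from its thiol-bearing inhibitor KEAP1, drives genes of glutathione, thioredoxin and heme breakdown. MTF1, a zinc-sensing factor, drives metallothioneins, which bind metals through cysteines. In the integrated stress response, kinases that include HRI (EIF2AK1) and PERK (EIF2AK3) phosphorylate eIF2α, general translation falls, and the factor ATF4 raises genes of amino acid supply and, with CHOP (DDIT3), of stress-linked death.

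Library totals were 18971897 to 21198935 estimated counts with arsenite and 19352892 to 39113258 untreated. Mitochondrial genes took 5.36% to 5.52% of the counts with arsenite and 5.42% to 5.57% untreated. The 10 highest genes of each library took 9.57% to 9.69% with arsenite and 6.21% to 6.28% untreated. Counts assigned to EIF2AK3, which the construct shares, averaged 26.3 ± 0.655 CPM (counts scaled to TMM-adjusted library size) with arsenite and 26.0 ± 1.34 CPM untreated in Parental cells, against 954 ± 6.44 and 985 ± 29.9 CPM in Dmr-PERK cells (SD, n = 3 each), as the line labels say. Some mesenchymal markers of the line were high. VIM had 1756 CPM with arsenite, against 2304 CPM untreated, and COL1A1 had 3090 CPM with arsenite, against 4403 CPM untreated. Others were not: CDH11 had 15.1 CPM with arsenite, against 34.5 CPM untreated, and TWIST1 did not pass the filter. In untreated wells the mesenchymal list summed to 5468 to 5539 TPM and the epithelial list to 725 to 756 TPM. Of 10 blood markers listed 6 passed the filter on low values, of which 2 rose, 1 fell and 3 did not pass the test. Over all genes tested 30.6% rose and 29.6% fell. CD68, a lysosomal protein of macrophages, had 3.27 CPM with arsenite, against 0.704 CPM untreated, and HBA2, an alpha-globin gene, had 2.29 CPM with arsenite, against 0 CPM untreated. ITGAM, a myeloid integrin, was lower, with 0.515 CPM with arsenite, against 0.909 CPM untreated, and the pan-leukocyte gene PTPRC did not pass, with 0.567 CPM with arsenite, against 0.670 CPM untreated. The summed level of the list was 12.2 to 13.5 TPM with arsenite and 2.65 to 3.92 TPM untreated, and its part in the results was not tested.

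Arsenite changed most of the genes that could be tested at 8 h. By edgeR's quasi-likelihood test with Benjamini-Hochberg adjustment, 16239 of 26998 genes (60.1%) passed an adjusted p of 0.05, with 8252 genes (30.6%) higher and 7987 genes (29.6%) lower. At larger sizes the directions were unequal: 4721 genes (17.5%) were called higher by at least 2-fold and 2739 genes (10.1%) were called lower by at least 2-fold. At 8-fold or more, 1132 genes were called higher and 152 lower. The filter used all 40 groups of the series, while 19714 genes passed with the 6 libraries alone. A gene near 0 untreated can pass through a treated group and can then only be called higher. By at least 2-fold, 15.3% of protein-coding genes were higher and 11.4% lower, against 23.6% and 6.69% of lincRNAs. The part of the filter in the 2-fold and 8-fold counts was not tested. The 3 arsenite values and the 3 untreated values did not overlap for 17437 genes (64.6%). The median log2 fold change over all genes tested was 0.04, and every fold change here is arsenite over untreated. Values are relative to the total of a library, so RNA per cell and cell number are not measured.

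**Figure D1:**
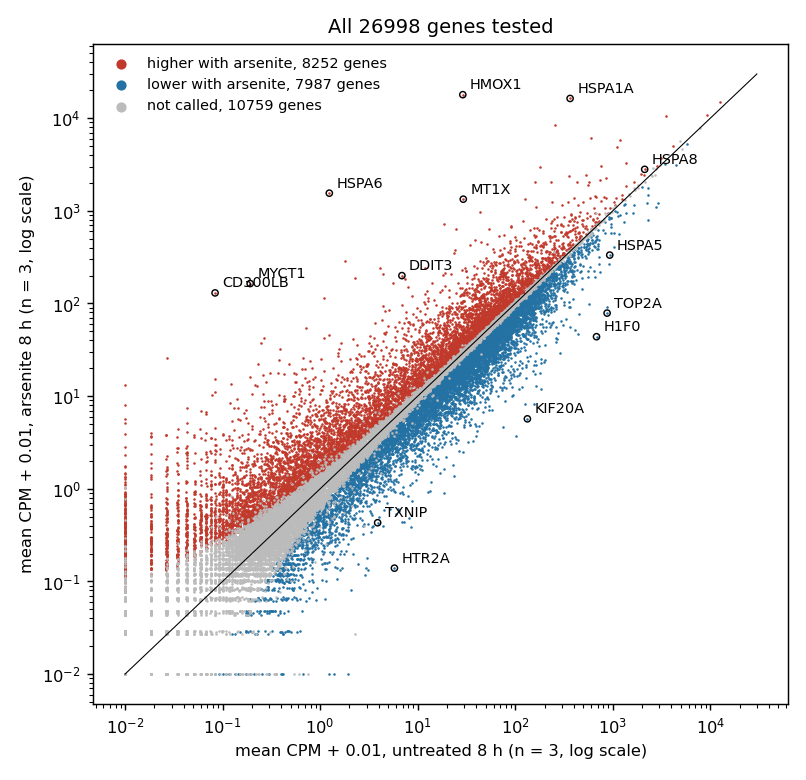
Mean CPM + 0.01 of each tested gene with arsenite (vertical axis, log scale) against untreated wells (horizontal axis, log scale), 3 libraries each. Red points were called higher with arsenite (8252 genes), blue points lower (7987 genes) and grey points were not called; HMOX1, HSPA6 and HSPA1A lie far above the line of equal level, and KIF20A, H1F0 and TOP2A lie below it.

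HMOX1, the inducible heme oxygenase that splits heme into biliverdin, iron and carbon monoxide, became the most abundant transcript of the cells. Its level per transcript length was 14216 ± 187 TPM with arsenite, rank 1 of all genes, and 27.5 ± 2.22 TPM untreated, rank 5796 (SD, n = 3 each). In counts, HMOX1 (ENSG00000100292.16, chromosome 22, 35380361 to 35394214 on GRCh38) had 17711, 18242 and 17858 CPM in the arsenite libraries, against 31.6, 26.7 and 28.7 CPM in the untreated libraries. The groups lay far apart, at a log2 fold change of 9.27 ± 0.09 (SE, edgeR adjusted p = 2e-93). HMOX1 alone took 1.66% ± 0.0198 of all counts with arsenite and 0.00296% ± 0.000227 untreated. The same share for HSPA1A and HSPA1B together was 2.28% ± 0.101 with arsenite and 0.0637% ± 0.000712 untreated, and for the metallothioneins 0.993% ± 0.0112 with arsenite and 0.0829% ± 0.00119 untreated (SD, n = 3 each). Genes that entered the top 25 by TPM with arsenite included MT1X (rank 13, against 916 untreated), HSPA1A (rank 9, against 560), CRYAB (rank 20, against 351) and MT1E (rank 10, against 233). MT2A (rank 3, against 85), HSPA1B (rank 22, against 901) and HSPB1 (rank 23, against 126) did so too.

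**Figure D2:**
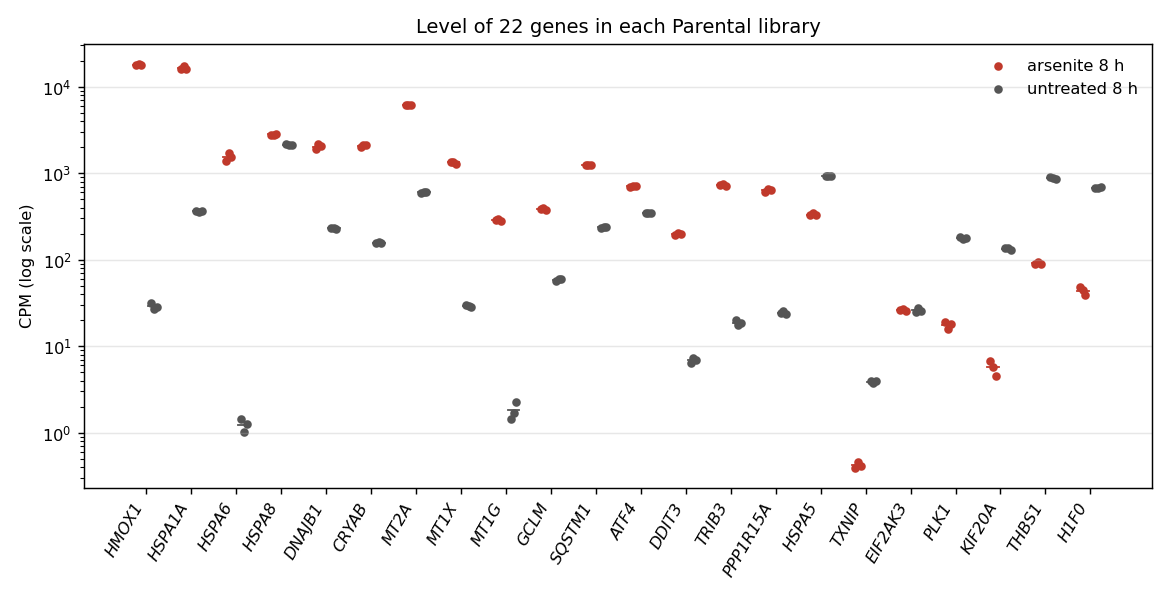
CPM (log scale) of 22 genes in each Parental library at 8 h, arsenite in red on the left and untreated in grey on the right of each gene, with a bar at the mean of 3 libraries. HMOX1 lies between 17711 and 18243 CPM with arsenite and between 26.7 and 31.6 CPM untreated, while EIF2AK3 overlaps between the groups.

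Chaperones mostly of the cytosol rose as a broad class, in lists that also held mitochondrial members such as HSPD1 (log2 fold change 2.04). Of 16 tested genes of the HSP70 family and its exchange factors, 12 rose, 1 fell and 3 did not pass the test, with a median log2 fold change of 1.12 against 0.04 over all genes. All but DNAJA2 of 10 HSP40 co-chaperones rose (median 1.66). Of 12 genes of HSP90 and its co-chaperones 10 rose, and TRAP1, the mitochondrial HSP90, and FKBP5 fell (median 1.74). Of 19 small heat shock proteins and chaperonins 17 rose and none fell (median 1.04), including all 8 subunits of the CCT chaperonin, at log2 fold changes of 0.35 (CCT8) to 1.07 (CCT4).

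HSPA1A and HSPA1B encode the same inducible HSP70 from neighbouring genes, so reads can be divided between them. HSPA1A (ENSG00000204389.9, chromosome 6, 31815464 to 31817946) had 15822, 17170 and 16007 CPM in the arsenite libraries, against 369, 355 and 370.5 CPM in the untreated libraries. HSPA1B had 8054, 8921 and 8224 CPM in the arsenite libraries, against 259, 257 and 257 CPM in the untreated libraries. Both genes were apart in every library, with log2 fold changes of 5.48 ± 0.10 (adjusted p = 4.05e-69) and 5.03 ± 0.09 (adjusted p = 1.06e-68, edgeR). HSPA6, a strictly stress-inducible HSP70 that mice and rats lack, had 1387, 1734 and 1535 CPM in the arsenite libraries, against 1.44, 1.01 and 1.25 CPM in the untreated libraries. That is a log2 fold change of 10.29 ± 0.19 (edgeR adjusted p = 1.11e-69), and its near-identical pseudogene HSPA7, which may share its reads, had 23.5, 30.1 and 23.9 CPM with arsenite, against 0, 0 and 0.0499 CPM untreated. HSPA8, the constitutive HSP70, moved far less, with 2778, 2803 and 2836 CPM with arsenite, against 2158, 2100 and 2114 CPM untreated. Its groups did not overlap, and its log2 fold change was 0.40 ± 0.05 (edgeR adjusted p = 7.9e-13).

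The co-chaperones of HSP70 rose beside it. DNAJB1, the HSP40 that delivers clients to HSP70, had 1887, 2180 and 2040 CPM with arsenite, against 233, 231 and 229 CPM untreated (log2 fold change 3.14 ± 0.06). BAG3, an exchange factor that links HSP70 to autophagy, had 613, 672 and 641 CPM with arsenite, against 56.0, 50.8 and 56.0 CPM untreated (3.56 ± 0.06). The lens and muscle small heat shock protein CRYAB had 1999, 2100 and 2103 CPM with arsenite, against 158, 159 and 157 CPM untreated (3.71 ± 0.05). In each of these 3 genes the groups were far apart. HSPB8, a partner of BAG3, had 479.7 CPM with arsenite, against 38.8 CPM untreated, HSPH1, an HSP110 exchange factor, had 2373 CPM with arsenite, against 352 CPM untreated, and HSP90AA1 had 5800 CPM with arsenite, against 1190 CPM untreated. HSP90AB1, the constitutive HSP90, was already abundant and averaged 5526 ± 57.3 TPM with arsenite and 2165 ± 21.6 TPM untreated. Of the heat shock factors themselves, HSF1 had 206, 211 and 207 CPM with arsenite, against 227, 213 and 219 CPM untreated (log2 fold change -0.08 ± 0.04, edgeR adjusted p = 0.0529), and HSF2 fell by 0.42 on the log2 scale.

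The promoters of HSPA6, HSPA1A and HSPA8 are shown because the members of 1 family moved so differently. A core of the heat shock element, GAANNTTC, which reads the same on both strands, is in capitals, and each sequence ends at the base before the RefSeq gene start (GRCh38.p14).
HSPA6, chr1:161524340-161524539, plus strand: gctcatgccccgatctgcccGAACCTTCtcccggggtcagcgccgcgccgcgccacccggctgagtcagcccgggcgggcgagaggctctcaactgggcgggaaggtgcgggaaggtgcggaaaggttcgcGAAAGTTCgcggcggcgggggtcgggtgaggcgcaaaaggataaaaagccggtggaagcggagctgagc
HSPA1A, chr6:31815393-31815542, plus strand: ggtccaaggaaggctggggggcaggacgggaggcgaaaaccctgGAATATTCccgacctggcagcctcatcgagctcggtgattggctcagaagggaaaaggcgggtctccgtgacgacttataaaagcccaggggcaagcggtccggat
HSPA8, chr11:123062137-123062386, minus strand: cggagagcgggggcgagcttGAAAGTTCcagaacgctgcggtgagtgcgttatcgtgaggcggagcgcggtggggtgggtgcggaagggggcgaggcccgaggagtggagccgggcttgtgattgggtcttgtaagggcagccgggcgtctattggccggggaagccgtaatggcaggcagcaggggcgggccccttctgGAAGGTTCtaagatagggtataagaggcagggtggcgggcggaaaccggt
HSPA6 and HSPA8 each hold 2 matches in this window and HSPA1A holds 1, while their log2 fold changes were 10.29, 0.40 and 5.48. Within 250 bases before to 50 bases after the start, the letters occur in 1875 of 27305 RefSeq promoters (6.87%). Of the 48 genes called higher in the 4 chaperone lists, 43 matched a promoter and 12 of those (27.9%) held it. Over all tested members of these lists it was in 13 of 51 promoters (25.5%), a similar share. A match is a description of the letters and not a bound site.

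Metallothioneins, small cysteine-rich proteins that bind zinc, copper and arsenicals, rose together with zinc exporters. Of 13 tested genes of the list, 11 rose, 1 fell and 1 did not pass (median 4.64 against 0.04 over all genes), and MT1A and MT3 were not tested. The median was 3.36 with the 3 members at 0 in all untreated libraries set to their bound. MT2A, the most abundant member, had 6188, 6164 and 6177 CPM in the arsenite libraries, against 594, 612 and 599 CPM in the untreated libraries. MT1X (ENSG00000187193.8, chromosome 16, 56682424 to 56684196) had 1350, 1364 and 1295 CPM in the arsenite libraries, against 30.0, 29.4 and 28.6 CPM in the untreated libraries. In MT1G the values were 287, 294 and 284 CPM with arsenite, against 1.44, 1.71 and 2.27 CPM untreated. No arsenite library of these 3 genes came near an untreated one, and the log2 fold changes were 3.36 ± 0.07, 5.51 ± 0.07 and 7.23 ± 0.11 (edgeR adjusted p = 1.59e-66, 4.21e-85 and 3.56e-75). MT1H was at 0 in all untreated libraries and averaged 3.91 CPM with arsenite, at least 31.7-fold higher against a floor of 3 counts per library. The MT1 genes are close copies in 1 cluster on chromosome 16, and reads may be divided among them. SLC30A1, the zinc exporter of the plasma membrane, had 649, 667 and 671 CPM with arsenite, against 93.2, 89.8 and 86.7 CPM untreated (log2 fold change 2.88 ± 0.05). The factor gene MTF1 had 49.0 CPM with arsenite, against 36.8 CPM untreated (log2 fold change 0.42 ± 0.07).

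The MT2A and MT1X promoters are given because both genes were abundant with arsenite (ranks 3 and 13 by TPM), with MT1E between them at rank 10. Capitals mark the metal response core, TGCACNC or TGCGCNC, on either strand, with overlapping matches counted, in windows that end at the base before the RefSeq start (GRCh38.p14).
MT2A, chr16:56608384-56608583, plus strand: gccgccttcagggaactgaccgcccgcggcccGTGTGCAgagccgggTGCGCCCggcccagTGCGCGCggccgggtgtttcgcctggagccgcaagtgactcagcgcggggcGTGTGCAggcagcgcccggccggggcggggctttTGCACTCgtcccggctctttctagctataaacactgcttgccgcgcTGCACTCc
MT1X, chr16:56682310-56682469, plus strand: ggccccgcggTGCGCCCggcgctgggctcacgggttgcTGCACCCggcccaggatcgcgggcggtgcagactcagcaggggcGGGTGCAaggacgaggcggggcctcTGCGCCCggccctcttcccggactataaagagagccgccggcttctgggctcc
MT2A holds 6 matches in the bases shown and MT1X holds 4. The core occurs in 8014 of 27305 promoters (29.3%), and in 6 of the 7 promoters found for members called higher (85.7%). For all tested members of the list the count was 6 of 9 promoters (66.7%).

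Genes of the NRF2 program rose in part. Of 20 thioredoxin, quinone and related genes 15 rose, 2 fell and 3 did not pass (median 0.70), and of 19 glutathione genes 13 rose, 2 fell and 4 did not pass (median 0.30), against 0.04 over all genes. GCLM, the regulatory subunit of the enzyme that starts glutathione synthesis, had 382, 397 and 378 CPM in the arsenite libraries, against 57.0, 59.5 and 59.1 CPM in the untreated libraries. SLC7A11, which imports the cystine for it and is also an ATF4 target, had 550.2 CPM with arsenite, against 77.5 CPM untreated. OSGIN1, an oxidative stress-induced growth inhibitor, had 139, 142 and 135 CPM with arsenite, against 16.9, 18.5 and 17.9 CPM untreated. SQSTM1, the p62 autophagy receptor that binds KEAP1, had 1254, 1248 and 1243 CPM in the arsenite libraries, against 234, 241 and 241 CPM in the untreated libraries. The groups were separate in all of these, with log2 fold changes of 2.72 ± 0.05 (GCLM), 2.83 ± 0.06 (SLC7A11), 2.96 ± 0.06 (OSGIN1) and 2.39 ± 0.04 (SQSTM1).

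Other well-known NRF2 targets moved less. TXNRD1, thioredoxin reductase, had 764, 781 and 766 CPM with arsenite, against 373, 366 and 359 CPM untreated (log2 fold change 1.07 ± 0.06). SRXN1, sulfiredoxin, had 282 CPM with arsenite, against 96.6 CPM untreated (1.54 ± 0.04). NQO1, the quinone reductase often used as an NRF2 readout, had 149, 145 and 149 CPM in the arsenite libraries, against 115, 121 and 120.4 CPM in the untreated libraries. Its groups did not overlap, yet its log2 fold change was 0.31 ± 0.04 (edgeR adjusted p = 1.04e-10). GCLC, the catalytic partner of GCLM, had a log2 fold change of 0.47, and the glutathione reductase GSR fell by 0.16 on the log2 scale. ME1, an enzyme that makes NADPH, rose by 2.22. In the regulators, small MAF genes rose: MAFF had 106 CPM with arsenite, against 12.6 CPM untreated, MAFG had 378 CPM with arsenite, against 89.0 CPM untreated, and MAFK had 275 CPM with arsenite, against 119 CPM untreated. NFE2L2, which encodes NRF2, had a log2 fold change of 0.47, its repressor BACH1 1.26 and KEAP1 -0.85. A short form of the antioxidant response element, TGACNNNGC on either strand, occurs in 3702 of 27305 promoters (13.6%) and in 5 of the 21 promoters found for called-higher members of the glutathione and thioredoxin lists (23.8%). Over all tested members of these lists it was in 8 of 29 promoters (27.6%), so called-higher members did not hold it more often.

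In iron handling, the storage genes rose and the uptake and export genes fell. FTH1, the ferritin heavy chain, had 3272 CPM with arsenite, against 1359 CPM untreated, and FTL, the light chain, had 2255 CPM with arsenite, against 844 CPM untreated, at log2 fold changes of 1.27 ± 0.04 and 1.42 ± 0.05. ALAS1, first enzyme of heme synthesis, rose by 1.89, and BLVRB, a biliverdin reductase, by 0.92. TFRC, the transferrin receptor, fell by 1.19, SLC11A2 (DMT1), an iron importer, fell by 1.23, and SLC40A1 (ferroportin), the iron exporter, fell by 2.92 on the log2 scale. Over the 15 heme and iron genes 8 rose, 6 fell and 1 did not pass, against 30.6% higher and 29.6% lower over all genes. The sign of the list's median (0.14) changed under other scalings.

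Targets of ATF4 and CHOP rose almost without exception. Of 31 tested genes 30 rose and 1 fell (ERO1A, an ER oxidase, log2 fold change -0.33), with a median of 2.28 against 0.04 over all genes. ATF4, whose protein is raised mainly by translation, had 689.7, 711 and 708 CPM in the arsenite libraries, against 350.1, 344 and 343 CPM in the untreated libraries. DDIT3, the gene of CHOP, had 194, 206 and 200.3 CPM in the arsenite libraries, against 6.40, 7.29 and 6.95 CPM in the untreated libraries. TRIB3, a pseudokinase that restrains ATF4 and CHOP, had 722, 761 and 705 CPM in the arsenite libraries, against 20.1, 17.4 and 18.5 CPM in the untreated libraries. PPP1R15A (GADD34), the phosphatase subunit that reverses eIF2α phosphorylation, had 611, 661 and 638 CPM in the arsenite libraries, against 24.3, 25.5 and 23.5 CPM in the untreated libraries. All 4 genes separated fully, with log2 fold changes of 1.02 ± 0.03, 4.86 ± 0.08, 5.29 ± 0.07 and 4.71 ± 0.06 (edgeR adjusted p = 2.01e-47, 7.04e-72, 1.43e-79 and 1.08e-79). Of the secreted stress proteins, GDF15 had 54.9 CPM with arsenite, against 0.715 CPM untreated, and FGF21 had 15.5 CPM with arsenite, against 0.841 CPM untreated. STC2 (stanniocalcin 2) had 7.44 CPM with arsenite, against 0.132 CPM untreated, and the sestrin SESN2, which restrains mTORC1, had 427 CPM with arsenite, against 34.7 CPM untreated.

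Amino acid supply rose less steeply. ASNS, asparagine synthetase, had 220.2, 217 and 213 CPM in the arsenite libraries, against 61.8, 61.7 and 61.8 CPM in the untreated libraries, a log2 fold change of 1.81 ± 0.04 with no overlap. Transporters of amino acids numbered 14, of which 11 were called higher and 3 lower (median 1.41), led by SLC7A11 (2.83) and SLC1A4 (2.18), while SLC7A2 fell by 1.71. Of 20 cytosolic aminoacyl-tRNA synthetases 12 rose, 5 fell and 3 did not pass (median 0.70). SARS (1.99), GARS (1.95) and CARS (1.92) rose, and FARSA fell by 1.05. The enzymes of serine synthesis PHGDH (1.23), PSAT1 (1.97) and PSPH (2.21) and the mitochondrial folate enzymes MTHFD2 (1.72) and ALDH1L2 (2.21) rose, whereas the cytosolic folate enzymes MTHFD1 and SHMT1 fell by 1.09 and 0.67.

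The ASNS promoter carries the C/EBP-ATF response element (CARE) that ATF4 is known to bind. It is shown with the letters TGATGNAA in capitals, ending at the base before the RefSeq start (GRCh38.p14).
ASNS, chr7:97872409-97872528, minus strand: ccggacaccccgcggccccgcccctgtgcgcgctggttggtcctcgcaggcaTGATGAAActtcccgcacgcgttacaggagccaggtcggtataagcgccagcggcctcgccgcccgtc
Read on both strands, these letters occur in 1003 of 27305 promoters (3.67%) and in 6 of the 23 promoters found for the ATF4 and CHOP targets called higher (26.1%). Whatever their call, tested members of this list held them in 6 of 24 promoters (25.0%), a similar share.

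The eIF2 kinases themselves moved in different directions. EIF2AK3 (PERK) had 26.4, 26.9 and 25.6 CPM in the arsenite libraries, against 24.9, 27.5 and 25.8 CPM in the untreated libraries, groups that overlap (log2 fold change 0.02 ± 0.07, edgeR adjusted p = 0.852). EIF2AK1 (HRI), the kinase known for its part in the arsenite response, had 169, 169 and 166 CPM with arsenite, against 241, 229 and 235 CPM untreated (-0.49 ± 0.03), and EIF2AK4 (GCN2) also fell, by 0.49. EIF2AK2 (PKR) rose by 1.01. All 5 subunits of eIF2B, the exchange factor that phosphorylated eIF2 blocks, fell, at log2 fold changes of -0.46 (EIF2B1) to -0.17 (EIF2B4). The list of 15 held 4 genes that rose, 10 that fell and 1 that did not pass (median -0.17).

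Chaperones of the ER went the other way from those of the cytosol. Of 18 ER chaperones and disulfide isomerases 16 fell, 1 rose (CANX, calnexin, 0.18) and 1 did not pass (DNAJB11), with a median of -0.57 against 0.04 over all genes. HSPA5 (BiP), the ER's HSP70, had 328, 344 and 328 CPM in the arsenite libraries, against 937, 937 and 919 CPM in the untreated libraries. The arsenite values lay well below, at a log2 fold change of -1.48 ± 0.04 (edgeR adjusted p = 1.78e-54). HYOU1, an exchange factor of BiP, and PDIA4, a disulfide isomerase, fell by 1.52 and 1.66, and MANF, a secreted ER stress protein, fell by 1.43. DNAJB9, a co-chaperone of BiP that restrains IRE1, had 7.51, 7.97 and 8.95 CPM in the arsenite libraries, against 9.0, 8.20 and 10.7 CPM in the untreated libraries. Those values overlap, and its call (log2 fold change -0.23 ± 0.09, edgeR adjusted p = 0.0259) was lost with DESeq2 and other scalings. Of 23 genes of ER-associated degradation and secretion 6 rose, 11 fell and 6 did not pass, against 30.6% higher and 29.6% lower over all genes. The sign of their median (-0.09) changed with the scaling. HERPUD1, which has sites for ATF4 as well as for ER stress factors, had 109 CPM with arsenite, against 43.0 CPM untreated, and XBP1 had 199 CPM with arsenite, against 74.5 CPM untreated, both called higher.

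**Figure D3:**
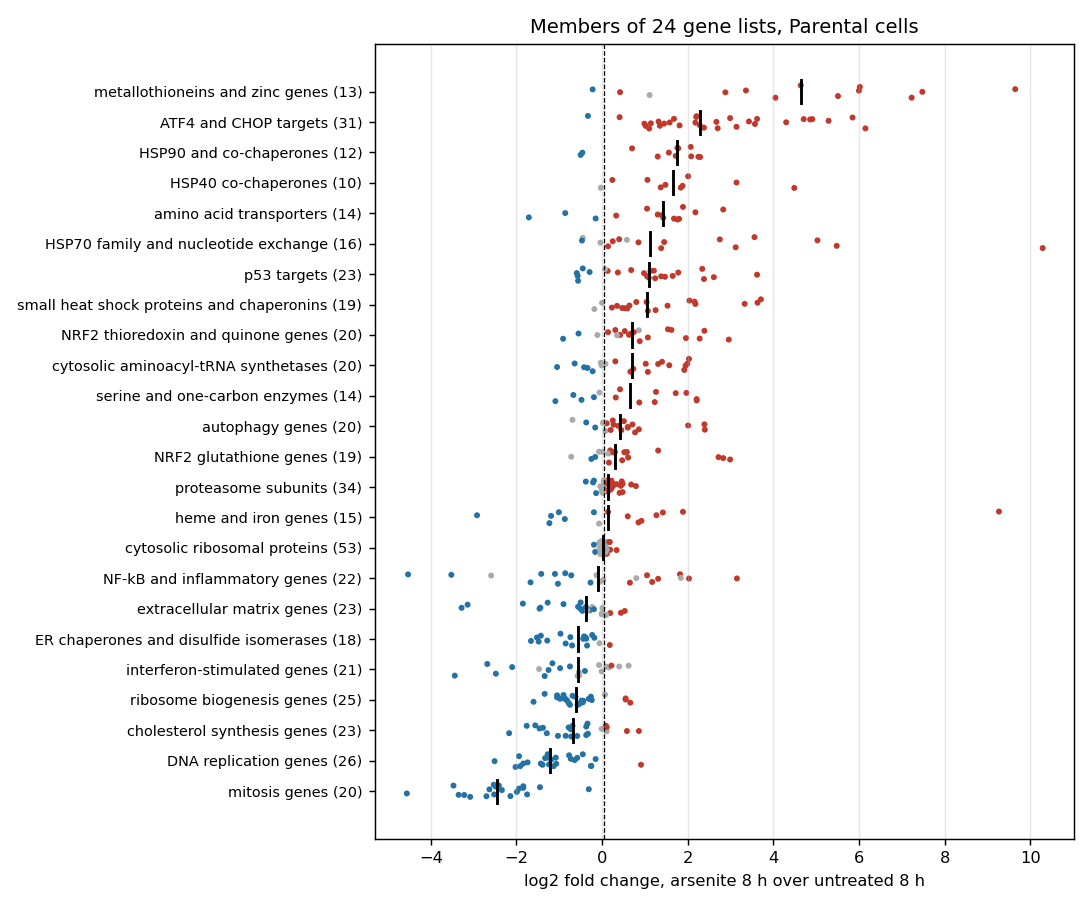
Log2 fold change (arsenite over untreated at 8 h) of each tested member of 24 gene lists, with the number of members in parentheses. Red members were called higher, blue lower and grey not called; black bars are list medians, from 4.64 for metallothioneins and zinc genes (3.36 with the 3 members at 0 untreated set to their bound) to -2.45 for mitosis genes, and the dashed line is the median of all genes, 0.04.

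Every mitosis gene tested was lower with arsenite. All 20 fell (median -2.45), from -0.31 for UBE2C to -4.56 for KIF20A. KIF20A, a kinesin of the central spindle, had 6.83, 5.68 and 4.53 CPM in the arsenite libraries, against 135, 135 and 130.1 CPM in the untreated libraries. PLK1, the polo-like kinase of mitotic entry, had 18.9, 15.9 and 18.0 CPM in the arsenite libraries, against 185, 174 and 178 CPM in the untreated libraries. AURKA, the centrosomal Aurora kinase, had 23.7, 22.6 and 23.8 CPM with arsenite, against 199, 199 and 197 CPM untreated. None of the arsenite values reached the untreated ones, and the log2 fold changes were -4.56 ± 0.09, -3.35 ± 0.06 and -3.08 ± 0.05 (edgeR adjusted p = 1.06e-67, 1.09e-67 and 3.49e-74). Of 26 DNA replication genes 25 fell (median -1.22), among them MCM5 (-1.84), PCNA (-1.74), CCNE2 (-2.51) and RRM2 (-1.94), and the licensing factor CDC6 rose by 0.91. In bulk wells, fewer cycling cells and less mRNA per cell cannot be told apart.

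Targets of p53 mostly rose. Of 23 tested genes 17 rose, 5 fell and 1 did not pass (median 1.09). CDKN1A (p21), which inhibits cyclin-dependent kinases, had 448, 451 and 455 CPM in the arsenite libraries, against 94.3, 85.5 and 87.5 CPM in the untreated libraries. TNFRSF10B (DR5), a death receptor that CHOP also raises, had 387, 412 and 404 CPM with arsenite, against 77.9, 76.2 and 76.6 CPM untreated. Of the BH3-only genes, PMAIP1 (NOXA) had 283 CPM with arsenite, against 46.3 CPM untreated, and BBC3 (PUMA) had 49.4 CPM with arsenite, against 14.5 CPM untreated. Those 4 genes rose, at log2 fold changes of 2.34 ± 0.04, 2.38 ± 0.05, 2.61 ± 0.05 and 1.78 ± 0.07. HRK, another BH3-only gene, rose by 3.19, and BMF fell by 3.80. The nucleotide excision gene XPC, the polymerase POLH and the sestrin SESN1 were among those that fell, by 0.45, 0.59 and 0.29. Of the GADD45 genes, GADD45A had 289 CPM with arsenite, against 43.3 CPM untreated (log2 fold change 2.74 ± 0.07) and GADD45B 62.1 CPM with arsenite, against 52.6 CPM untreated (0.25 ± 0.06), a call lost with library totals and on the TPM scale.

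Genes of cholesterol synthesis and ribosome biogenesis mostly fell. Of 23 cholesterol synthesis genes 17 fell, 4 rose and 2 did not pass (median -0.69): SQLE, squalene epoxidase, fell by 1.76, but HMGCS1, an early enzyme of the same path, had a log2 fold change of 0.11 that did not pass. Of 25 ribosome biogenesis genes 21 fell, 3 rose and 1 did not pass (median -0.62). NCL, nucleolin, had 558, 557 and 559 CPM with arsenite, against 1164, 1139 and 1162 CPM untreated (log2 fold change -1.05 ± 0.04), and POLR1A, the large subunit of RNA polymerase I, fell by 0.78. Few of the 53 ribosomal proteins were called: 6 rose, 2 fell and 45 did not pass, within -0.19 (RPS25) and 0.34 (RPL10A). Of 13 mitochondrially encoded genes 9 did not pass, 3 rose and 1 fell. The medians of both lists, 0.02 each, changed sign with the scaling.

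Matrix and adhesion genes of the osteosarcoma cells were also lower. Of 23 extracellular matrix genes 14 fell, 3 rose and 6 did not pass (median -0.38). THBS1, thrombospondin 1, had 89.1, 94.8 and 88.7 CPM in the arsenite libraries, against 905, 892 and 851 CPM in the untreated libraries. FBN1, fibrillin 1, had 5.76, 5.56 and 4.22 CPM with arsenite, against 47.8, 44.4 and 44.1 CPM untreated. Both were far below untreated, at log2 fold changes of -3.28 ± 0.06 and -3.14 ± 0.09. CYR61 and CTGF, targets of the YAP coactivator, fell by 1.44 and 1.85. Among 10 mesenchymal markers tested 7 fell and none rose, including RUNX2 (-1.24), the osteoblast factor, and CDH11 (-1.18). SPARC did not pass (0.01). Epithelial markers were mixed, with 5 that rose, 1 that fell and 4 that did not pass, and E-cadherin (CDH1) had 10.3 CPM with arsenite, against 1.92 CPM untreated. Beside the counts of these 3 lists, 30.6% of all genes tested were called higher and 29.6% lower.

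Signalling genes showed a divided picture. Of 18 immediate early genes 13 rose, 3 fell and 2 did not pass (median 0.68). ATF3, a repressor that ATF4 also drives, had 122, 134 and 127 CPM with arsenite, against 11.6, 12.1 and 11.9 CPM untreated, and NR4A1, an orphan nuclear receptor, had 98.6 CPM with arsenite, against 12 CPM untreated. JUNB and IER3 fell, by 1.19 and 1.07. Of 11 dual-specificity phosphatases, which switch off MAP kinases, 8 rose and 1 fell (median 1.26), led by DUSP4 (2.36), DUSP5 (2.26) and DUSP2 (2.24). Of 22 NF-kB and inflammatory genes 7 rose, 9 fell and 6 did not pass, against 30.6% higher and 29.6% lower over all genes, and the sign of their median (-0.08) depended on the scaling. NFKBIA, the NF-kB inhibitor, fell by 1.67, BIRC3 by 3.52 and CCL2 by 4.53, while TNFAIP3 (A20) rose by 1.82 and IL11 by 3.15. Of 21 interferon-stimulated genes 10 fell, 1 rose and 10 did not pass (median -0.57), with PARP9 at -2.68.

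Further lists held single large movers. Of 20 autophagy genes 15 rose (median 0.42), and the LC3 gene MAP1LC3B had 528 CPM with arsenite, against 100.1 CPM untreated, and GABARAPL1 had 226 CPM with arsenite, against 56.0 CPM untreated. Of 20 hypoxia and glycolysis genes 14 rose (median 0.31), with VEGFA (2.20) and NDRG1 (2.10) far above GAPDH (0.07) and with LDHA lower (-0.42). Of 34 proteasome subunits 22 rose, 4 fell and 8 did not pass, with no subunit past PSMD2 (0.79), and the sign of the median (0.15) changed with the scaling. The polyubiquitin gene UBB rose (1.30), while the ribosomal fusion RPS27A did not pass (0.04). TXNIP, the arrestin that inhibits thioredoxin, had 0.395, 0.459 and 0.407 CPM in the arsenite libraries, against 3.95, 3.72 and 3.96 CPM in the untreated libraries. It was low in both groups and lower with arsenite (log2 fold change -3.20 ± 0.35, edgeR adjusted p = 8.62e-14). Of 11 genes of arsenic transport and methylation 8 rose and none fell (median 0.28). ABCB1, the multidrug exporter, had 181, 187 and 188 CPM in the arsenite libraries, against 7.27, 6.99 and 7.80 CPM in the untreated libraries, an increase of 4.64 ± 0.09 with no overlap, whereas the conjugate exporter ABCC1 (-0.07) and the methyltransferase AS3MT (-1.33) did not pass.

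Among the 12 highest called genes with at least 5 CPM in the higher group, several were close to silent untreated. CD300LB, an activating receptor of myeloid cells, had 116, 137 and 137 CPM in the arsenite libraries, against 0.0963, 0.0503 and 0.0748 CPM in the untreated libraries. MYCT1, named as a MYC target, had 161, 161 and 170.1 CPM with arsenite, against 0.144, 0.251 and 0.150 CPM untreated. RNASE7, an antimicrobial ribonuclease of skin, had 6.77, 8.03 and 9.41 CPM with arsenite, against 0, 0 and 0 CPM untreated, at least 65.4-fold higher against a floor of 3 counts per library. ESRP1, a splicing regulator of epithelial cells, had 7.40, 7.57 and 7.48 CPM with arsenite, against 0, 0.0503 and 0.0499 CPM untreated. Groups without overlap were a condition of the choice, so their separation is not a result of its own. Of the copies of the DUX4 repeat, DUX4L13 had 3.61, 23.8 and 12 CPM with arsenite, against 0, 0 and 0 CPM untreated, and DUX4L25 had 18.7, 2.98 and 8.95 CPM with arsenite, against 0, 0.201 and 0 CPM untreated, so the arsenite libraries of each differed by several fold among themselves. Also in this group of 12 were HSPA6, HSPA7 and HMOX1, the ribosomal protein pseudogene RPSAP44, RP11-280G9.1 and ARHGAP39, a GTPase-activating protein (log2 fold change 7.44). Sequence shared with near-identical copies makes the DUX4 repeats and RPSAP44 uncertain.

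The 12 lowest by the same rule held mitotic genes, receptors and matrix genes. HTR2A, the serotonin 2A receptor, had 0.0565, 0.229 and 0.102 CPM in the arsenite libraries, against 5.53, 5.83 and 5.93 CPM in the untreated libraries. H1F0, the linker histone H1.0, had 48.5, 44.1 and 38.8 CPM in the arsenite libraries, against 674, 676 and 694 CPM in the untreated libraries, and was the most abundant of the 12. The rule required groups without overlap, and the log2 fold changes of HTR2A and H1F0 were -5.45 ± 0.28 and -3.96 ± 0.16. The DNA helicase PIF1 (-4.76), the kinesin KIF18B (-4.23) and the spindle protein PSRC1 (-4.04) stood beside KIF20A. SOX18, an endothelial transcription factor, fell by 4.46, the dopamine receptor DRD1 by 4.37, the elastic fibre protein EMILIN1 by 4.13 and the toll-like receptor partner TRIL by 4.08 on the log2 scale. RP11-196G18.23 and TGFB2-AS1, an antisense gene whose reads may include those of the other strand, completed the 12 (-4.08 and -3.97).

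Whether the effect at 8 h differed from that at 4 h was tested as (arsenite minus untreated at 8 h) minus (arsenite minus untreated at 4 h). It differed for 9474 genes (35.1%), of which 4269 had a higher and 5205 a lower value at 8 h. Among the 5676 of these called at both times, 4144 had the same sign and a larger size at 8 h, 749 the same sign and a smaller size, and 783 opposite signs. The mitosis list changed throughout: all 20 genes had a lower effect at 8 h (median -1.91 against 0.03 over all genes). KIF20A had 37.5 CPM with arsenite and 68.9 untreated at 4 h, and 5.68 and 133 at 8 h, so that the log2 effect was lower by 3.68. Of 23 cholesterol genes 19 had a lower effect at 8 h and 1 a higher one (median -0.69).

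The NRF2 lists had mostly higher effects at 8 h than at 4 h, while the inducible HSP70 genes had lower ones. Over all genes 15.8% had a higher and 19.3% a lower effect at 8 h. Of 20 thioredoxin and quinone genes 13 had a higher effect at 8 h and 3 a lower one, and GCLM (1.07 ± 0.06), TXNRD1 (1.07 ± 0.08) and SQSTM1 (1.18 ± 0.06) were each higher by over 1 on the log2 scale. Of 16 genes of the HSP70 family and its exchange factors 7 had a lower effect, 3 a higher one and 6 did not pass (median -0.04). HSPA1A was at 16766 ± 146 CPM with arsenite at 4 h and 16333 ± 730.3 at 8 h (SD, n = 3 each). Its untreated wells were at 90.7 ± 4.93 and 365 ± 8.36. The arsenite wells were thus at similar means at both times while the untreated wells were higher at 8 h, and the effect was lower by 2.05 on the log2 scale (edgeR adjusted p = 4.15e-27). HSPA1B (-2.65), DNAJB1 (-1.26) and BAG3 (-1.02) also had lower effects, at untreated levels of 56.8, 142 and 30.7 CPM at 4 h and 257, 231 and 54.3 CPM at 8 h. DNAJB1 had log2 fold changes of 4.40 at 4 h and 3.14 at 8 h, and BAG3 of 4.58 and 3.56. In these 3 genes the arsenite wells were therefore also lower at 8 h than at 4 h. HSPA6 too was lower in the arsenite wells themselves at 8 h, 1552 ± 174 CPM, than at 4 h, 3023 ± 35.9 CPM. Of the ATF4 targets, CHAC1, which degrades glutathione, had a smaller effect at 8 h (-1.93 ± 0.16) and HERPUD1 a higher one (1.38 ± 0.08).

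**Figure D4:**
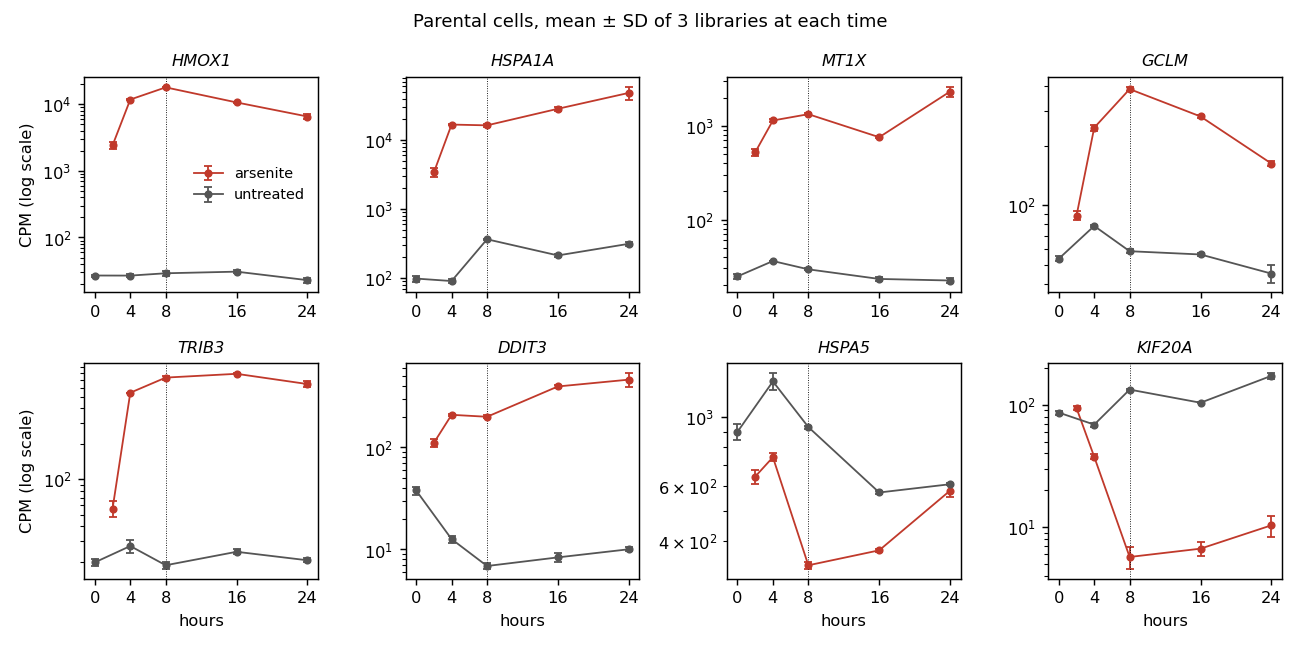
CPM (log scale) of 8 genes in Parental cells over hours, arsenite in red (2 to 24 h) and untreated in grey (0 to 24 h), as mean ± SD of 3 libraries. The dotted line marks 8 h, where HMOX1 was at its highest mean with arsenite (17937 CPM) and HSPA5 and KIF20A at their lowest (333 and 5.68 CPM).

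Of the 22 NF-kB and inflammatory genes 7 rose and 9 fell at 8 h, against 3 and 17 at 4 h. Over all 26998 genes, 8252 rose and 7987 fell at 8 h, against 6500 and 6782 at 4 h. CXCL8 (interleukin 8) had 5.25, 4.82 and 4.17 CPM with arsenite, against 0.914, 1.76 and 0.972 CPM untreated at 8 h, a log2 fold change of 2.03 ± 0.44 at 8 h against -3.91 at 4 h. The difference was 5.94 ± 0.50 (edgeR adjusted p = 8.1e-19), and untreated wells were at 76.7 CPM at 4 h and 1.22 CPM at 8 h. By the test of the difference, 13 of the 22 had a higher effect at 8 h and none a lower one (median 0.85). Over all genes the shares were 15.8% higher and 19.3% lower. CSF2 (GM-CSF, 5.18) and RGS4, a regulator of G protein signalling (5.56), were among the 5 highest differences. CSF2 was lower with arsenite at both times, by a log2 fold change of -1.88 at 8 h against -7.06 at 4 h.

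The same treatment in Dmr-PERK cells gave an effect that differed for 6614 genes (24.5%), of which 3489 had a higher and 3125 a lower value in Parental cells. Of the 4614 called in both lines, 407 had opposite signs, 1318 the same sign and a larger size in Parental cells, and 2889 the same sign and a smaller size. HMOX1 reached 17937 ± 274 CPM in Parental and 18760 ± 511 CPM in Dmr-PERK cells with arsenite, and the effects differed by -0.15 ± 0.11 on the log2 scale (edgeR adjusted p = 0.343). Of 31 ATF4 and CHOP targets 10 had a higher and 13 a lower effect in Parental cells. GDF15 stood out, at 54.9 ± 2.51 and 0.715 ± 0.240 CPM in Parental cells with arsenite and untreated, against 116 ± 5.60 and 10.7 ± 1.62 CPM in Dmr-PERK cells, a difference of effects of 2.71 ± 0.24.

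Targets of p53 had the higher effect in Parental cells in 16 of 23 genes and the lower in 2 (median 0.56 against -0.04 over all genes, of which 12.9% had a higher and 11.6% a lower effect). CDKN1A had 451 ± 3.94 and 89.1 ± 4.61 CPM in Parental cells, against 305 ± 5.97 and 103 ± 1.59 CPM in Dmr-PERK cells (arsenite before untreated, SD, n = 3 each). Of 25 ribosome biogenesis genes 14 had a higher effect in Parental cells and none a lower one, and of 26 replication genes 12 and 2. Both lists mostly fell in both lines, so these higher effects were mostly smaller decreases. Their medians in Parental and Dmr-PERK cells were -0.62 and -0.80 for ribosome biogenesis, and -1.22 and -1.32 for replication. For hypoxia and glycolysis genes the counts of higher and lower effects were 15 and 0 of 20. Mitosis genes had a lower effect in Parental cells in 15 of 20 (median -0.41). Of 34 proteasome genes 15 had a lower effect in Parental cells and 2 a higher one. Among the 5 highest and 5 lowest differences were PLAU, the urokinase gene (2.99), and ITGA2, an integrin chain (2.89), on the Parental side, and MYOCD, myocardin (-5.12), on the Dmr-PERK side. PLAU and ITGA2 fell in both lines, by less in Parental (-0.65 and -1.04) than in Dmr-PERK cells (-3.64 and -3.93). MYOCD fell in Parental cells (-2.16) and rose in Dmr-PERK cells (2.95).

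Arsenite and thapsigargin wells of Parental cells at 8 h, compared directly, differed in 16789 genes (62.2%), 8850 higher (32.8%) and 7939 lower (29.4%) with arsenite. Both have the same untreated wells, so their effects are given side by side. Of the 31 ATF4 and CHOP targets 17 were higher with arsenite, 10 lower and 4 did not pass (median 0.23). PPP1R15A (0.98 ± 0.05), GDF15 (0.95 ± 0.08) and SESN2 (0.91 ± 0.06) were higher with arsenite by nearly 1 on the log2 scale. DDIT3 had 199.9 ± 6.12 CPM with arsenite, 250.5 ± 7.80 with thapsigargin and 6.88 ± 0.449 untreated. TRIB3 had 729 ± 28.5, 566 ± 9.37 and 18.7 ± 1.32 CPM in the same order. The direct difference was -0.33 ± 0.06 for DDIT3 and 0.36 ± 0.05 for TRIB3. ATF4 itself differed by 0.09 ± 0.03, a sign that turned on the TPM scale. Over the 31 targets the median log2 fold changes were 2.28 with arsenite and 2.37 with thapsigargin, each over untreated.

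The chaperone and metal arms set the agents apart. All 18 ER chaperones were lower with arsenite than with thapsigargin (median -2.67). HSPA5 had 333 ± 9.07 CPM with arsenite, 9357 ± 127 with thapsigargin and 931 ± 10.4 untreated. HSPA1A had 16333 ± 730.3, 12.4 ± 1.11 and 365 ± 8.36 CPM in that order, so thapsigargin wells lay below untreated ones. MT1X had 1336 ± 36.7, 32.4 ± 0.317 and 29.3 ± 0.708 CPM, and HMOX1 17937 ± 274, 25.9 ± 3.56 and 29 ± 2.43 CPM. Of 20 thioredoxin and quinone genes 19 were higher with arsenite. TXNIP was apart in the other direction, at 0.420 ± 0.0338, 28.8 ± 1.16 and 3.88 ± 0.136 CPM. Mitosis genes were lower with arsenite in 20 of 20 (median -1.80), and all 20 were also called lower with thapsigargin than untreated (median -0.63). The near-silent receptor CD300LB had 130.1 ± 12, 0.0603 ± 0.0110 and 0.0738 ± 0.0230 CPM, whereas ESRP1 had 7.48 ± 0.0861, 8.70 ± 0.567 and 0.0334 ± 0.0289 CPM, raised by both agents. ARL2-SNX15, a read-through gene whose reads may belong to its neighbours, had the highest fitted difference, with 16.1 CPM with arsenite and 0 in all thapsigargin libraries, at least 112.0-fold higher against a floor of 3 counts per library, and PTX3 (pentraxin 3, -5.55) and BIRC3 (-5.24) were among the lowest.

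**Figure D5:**
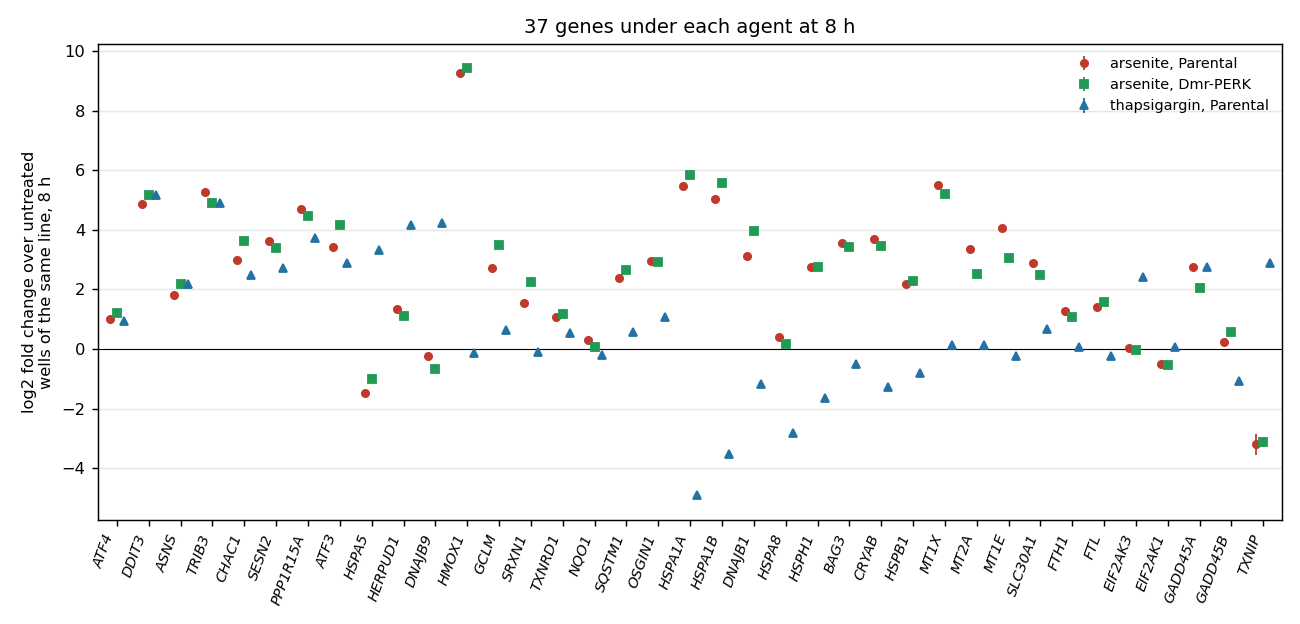
Log2 fold change over untreated wells of the same line at 8 h for 37 genes, with arsenite in Parental cells (red circles), arsenite in Dmr-PERK cells (green squares) and thapsigargin in Parental cells (blue triangles); lines are approximate SE. In that order, HSPA5 lies at -1.48, -1.01 and 3.33 and HSPA1A at 5.48, 5.83 and -4.89.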

How the data were processed

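The authors deposited estimated counts and TPM per gene. FastQC 0.11.5 and Salmon 0.9.1 with build GRCh38 were used, per the submitters' processing notes. The library kit marks the strand, but the sources used here do not give whether counting used it. Of the non-zero deposited estimated counts 49.5% were whole within 1e-05. The authors' TPM values scale abundances per transcript length and were used for levels between genes and as an alternative scale.

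After rounding, edgeR 4.0.16 (R 4.3.3) tested the estimated counts (filterByExpr on groups, minimum count 10, TMM, 1 quasi-likelihood fit of 120 libraries in 40 groups, Benjamini-Hochberg over 26998 genes, called at an adjusted p under 0.05). SE is approximate, from the fold change and its F statistic. Simulated counts with known changes were tested first in the same fit. The 4 comparisons were arsenite against untreated at 8 h, that effect against 4 h and against Dmr-PERK cells, and arsenite against thapsigargin.

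Members and lists were chosen with earlier results of these data known. Named genes were the 12 highest and 12 lowest called without overlap at 5 CPM or more, the 3 smallest adjusted p of each list, a panel of 37 genes, and the 5 highest and 5 lowest of each other comparison; list members may also be named, and DUX4, ZSCAN4, TRIM43 and MBD3L2 were chosen after their values were seen. Positions come from GENCODE 29 (23995 of the tested genes matched by identifier and version), promoters from RefSeq. Alternatives were DESeq2 1.42.0, limma 3.58.1 on log2(TPM + 1) or log2(TPM + 0.1), no filter, other scalings, the 6 libraries alone, a replicate block and leaving out each replicate. Replicates of a group differed by more than sampling noise. Floors cover counting error only. Some items are not reported here.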

Additional observations from a re-analysis of the deposited data

Results flagged for a closer look

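The arsenite effect at 8 h differed from that at 4 h for 9474 genes, by a test of the difference itself. The 5 highest differences were in RNASE7 (6.71 on the log2 scale, 8 h minus 4 h), CXCL8 (5.94), RGS4 (5.56), AC003092.1 (5.43) and CSF2 (5.18). RNASE7 was at 0 in all untreated libraries at 8 h, so its fitted value rests on the prior count and is neither a size nor a bound. CSF2 was lower with arsenite at both times. The 5 lowest were in HTR2A (-4.10), KIF20A (-3.68), ATOH8 (-3.39), a bHLH transcription factor, LURAP1L (-2.96) and FOXS1 (-2.87), a forkhead factor.

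Of the panel, 11 genes differed by at least 1 on the log2 scale between the times. The effect was higher at 8 h in HERPUD1 (1.38), DNAJB9 (1.27), SQSTM1 (1.18), GCLM (1.07) and TXNRD1 (1.07). It was lower at 8 h in HSPA1B (-2.65), HSPA1A (-2.05), CHAC1 (-1.93), DNAJB1 (-1.26), ATF3 (-1.14) and BAG3 (-1.02). DNAJB9 had an effect of -1.50 at 4 h and -0.23 at 8 h, so the higher value at 8 h was a smaller decrease. ATF3 had 4.57 at 4 h and 3.43 at 8 h, and CHAC1 had 4.92 and 2.99.

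Between the lines the effect differed for 6614 genes, also by a test of the difference. On the side of Parental cells stood ARL14EPL (4.10 on the log2 scale, Parental minus Dmr-PERK), PLAU (2.99), ITGA2 (2.89), NOG (2.77), which encodes the BMP antagonist noggin, and GDF15 (2.71). PLAU, ITGA2 and NOG fell in both lines, so their higher values were smaller decreases in Parental cells. Their log2 fold changes were -0.65, -1.04 and -1.24 in Parental cells, against -3.64, -3.93 and -4.00 in Dmr-PERK cells. On the side of Dmr-PERK cells stood AC009065.1 (-8.42), GUCY2C (-6.40), CHRNA4 (-5.43), a nicotinic receptor subunit, MYOCD (-5.12) and A2ML1 (-4.25), an alpha-2-macroglobulin-like protease inhibitor. MYOCD had opposite signs, with log2 fold changes of -2.16 in Parental and 2.95 in Dmr-PERK cells. GUCY2C and CHRNA4 were at 0 in all untreated Dmr-PERK libraries, so their fitted values rest on the prior count and are neither sizes nor bounds. AC009065.1 had 1.58, 0 and 0.102 CPM in the arsenite libraries, against 0.866, 12.1 and 6.38 CPM in the untreated libraries of Parental cells, values that overlap and spread widely within each group. PLAU averaged 14.8 ± 1.05 CPM with arsenite and 23.2 ± 1.64 CPM untreated in Parental cells, against 4.37 ± 0.251 and 53.6 ± 0.946 CPM in Dmr-PERK cells. GUCY2C averaged 0.678 ± 0.0674 CPM with arsenite and 0.0656 ± 0.0569 CPM untreated in Parental cells, against 5.10 ± 1.00 and 0 ± 0 CPM in Dmr-PERK cells (SD, n = 3 each). The Dmr-PERK cells are a derived line, and what else differs between the lines was not tested.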

How the results depend on the processing

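The number of genes called between arsenite and untreated wells, 16239, was 15702 with DESeq2, 15756 without a filter, 16239 with RLE factors, 15425 on log2(TPM + 1) and 14841 of 19714 genes with the 6 libraries alone. Leaving out each replicate gave 15086 to 15693. The share of higher calls, 50.8%, was 60.5% with upper-quartile factors, 42.1% with library totals and 39.6% on log2(TPM + 1) (6103 higher, 9322 lower). These scalings moved the median of all genes by 0.15, -0.13 and -0.10. On the 8 h against 4 h contrast the higher calls were 5382 and the lower 4360 with upper-quartile factors, and 7708 to 7877 genes were called without each replicate. The line contrast had 2469 higher and 3603 lower calls on log2(TPM + 1), and 4749 to 5088 calls without each replicate. With thapsigargin the split was 11124 to 6152 with upper-quartile factors, and 15159 to 15523 calls without each replicate.

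Same-numbered arsenite and untreated libraries did not deviate together (correlations of -0.00941, -0.0289 and 0.0385 over 10579 genes). A pairing of wells by number was thus not seen, which does not exclude one, since noise of single libraries could hide it. A replicate block gave 16225 calls, and 9486, 6649 and 16780 in the other comparisons.

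Signs turned for RGS4 at 8 h (0.67; -0.04, -0.06 and -0.04 on the TPM scales), CHRNA4 between the lines (-5.43; 0.11 and 0.11) and ATF4 against thapsigargin (0.09; -0.09, -0.09 and -0.09), and the cause was not tested. Of 3458 alternative values for 204 genes between arsenite and untreated wells, 3386 kept direction and call, 54 lost the call, 15 gained it and 3 turned. Medians of 30 of 43 lists kept their sign under all 17 alternatives. Depth limits genes under about 1 CPM, where 3 counts are 0.123 CPM in an untreated library.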

Other observations

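Gene types moved unevenly. Of the tested genes with a GENCODE 29 entry, 14779 were protein coding, and 32.1% of those were called higher and 39.2% lower with arsenite (median log2 fold change -0.04). Of 2751 lincRNAs 30.2% were called higher and 11.2% lower (median 0.39), and of 2412 antisense genes 27.9% and 13.4% (median 0.25). The untreated level of these classes differed widely, with a median of 16.7 CPM for protein-coding genes, 0.345 CPM for lincRNAs and 0.438 CPM for antisense genes, and its part in the result was not tested. By genomic span, the longest quintile of protein-coding genes (93.0 to 2300.0 kb) had 40.7% called higher and 31.9% lower, and the shortest quintile (0.207 to 9.24 kb) 26.5% and 38.7%. Of 376 protein-coding genes whose transcripts have a single exon, 22.1% were called higher and 38% lower.

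Genes near silence in untreated wells came up in number. With a mean under 0.5 CPM untreated and at least 5 CPM with arsenite there were 71 genes, a choice by level that fixes their direction, and in the reverse direction 5 genes. Of the 71, 65 had a GENCODE type and 43 were protein coding. In Dmr-PERK cells 56 of the 71 also reached 5 CPM with arsenite at 8 h, while 20 reached 1 CPM with thapsigargin in Parental cells.

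DUX4, the double homeobox factor of the early embryo, had 15.8, 17.5 and 17.9 CPM in the arsenite libraries, against 0.241, 0.151 and 0.349 CPM in the untreated libraries. Its groups were far apart (log2 fold change 5.95 ± 0.33, edgeR adjusted p = 2.81e-31), with the limit that its repeats share sequence. ZSCAN4, a gene that DUX4 is known to activate, had 0.677, 0.287 and 0.814 CPM with arsenite, against 0.241, 0.352 and 0.324 CPM untreated, values that overlap. Of its other known targets, TRIM43 had 0.282, 0.803 and 0.407 CPM with arsenite, against 0.433, 0.251 and 0.199 CPM untreated, and MBD3L2 had 0, 0.172 and 0 CPM with arsenite, against 0, 0.151 and 0.125 CPM untreated. Another repeated gene, HBA2, was at 0 untreated and averaged 2.29 CPM with arsenite, at least 18.5-fold higher against a floor of 3 counts per library, and its near-identical copy HBA1 did not pass; reads may be divided between the copies.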
